A study of Mus musculus with 5 samples.

Results

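The variable (TRBV) and joining (TRBJ) segments of the T cell receptor beta chain were counted in *Tet2/3* DKO and wild type (WT) CD4 SP thymocytes. A segment was taken as the first V or J hit of a clonotype, cut before the allele, and every productive clonotype was used, that is, every row whose CDR3 protein held neither a frame shift nor a stop. This gave 39 segments, 27 TRBV and 12 TRBJ, in 41190 productive clonotypes of 42772 in all. The whole series also counts reads on 55487 genes, and the *Trb* genes among them serve as a second measure of the same segments. Usage was expressed as the share of clonotypes, where each clonotype counts once, and as the share of TRB reads, where a clonotype counts by its reads.

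A beta chain is made when a V, a D and a J segment are joined in immature thymocytes, with bases trimmed from the segment ends and others added between them. The CDR3 is the loop across that joint, from a conserved cysteine of V to a conserved phenylalanine of J, and it touches the peptide that the receptor reads. V and J segments are chosen with unequal frequency by recombination, and selection on self peptide and MHC then changes which V segments are found in mature CD4 cells. TET2 and TET3 are dioxygenases that oxidize 5-methylcytosine in DNA.

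The libraries came from C57BL/6J mice, 3 WT and 2 of genotype *Tet2*-/-*Tet3*flx/flx CD4cre, 1 library per mouse, from animals given in the methods as 21 to 30 days old. *Tet2* was absent from the germline in the DKO mice, and *Tet3* was deleted by a Cre driven from *Cd4*. The paper places that deletion at the double-positive (CD4+ CD8+) stage, which comes after the beta chain is joined. The cells were sorted as live, CD24 low, CD4+, TCRb+, CD8- and negative for the CD1d tetramer, which binds invariant NKT (iNKT) cells. SMART-seq copies full-length cDNA without molecular identifiers, so reads are not independent molecules and all intervals here cover counting error only. *Tet3* stood at 47.5 ± 4.60 CPM (gene reads scaled to library size; mean ± SD of 3 libraries) in WT against 16.4 ± 4.63 (2 libraries) in DKO, a log2 fold change of -1.50 (edgeR quasi-likelihood test, adjusted p = 0.00121). *Tet2* did not pass the test, at 55.0 ± 2.71 and 74.3 ± 22.3 CPM (log2 fold change 0.46, adjusted p = 0.135), and counts per gene do not show whether an exon is missing.

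In a pair of libraries the sex-linked genes went against the labels, which was seen before any segment was counted. DKO replicate 1 is labelled male but held 744 *Xist* reads and 7 reads of 4 Y-linked genes, whereas the other libraries held 0 to 2 *Xist* reads and 5101 to 7041 of the Y-linked genes. WT replicate 1 is labelled female but held 0 *Xist* reads and 6821 of the Y-linked genes. Results are therefore also given without DKO replicate 1, which leaves 1 library in the DKO group, whose spread is then assumed to be that of WT. The libraries held 8500 to 10244 productive TRB clonotypes in WT, 7815 in DKO replicate 1 and 5299 in DKO replicate 2, from 10224 to 13152 productive reads. Between 73.4% and 80.8% of clonotypes rested on 1 read, and at least 99.1% of them had 1 best V and 1 best J hit.

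The sort was checked against marker genes fixed for each cell type, tested at an adjusted p of 0.01 in the same edgeR fit as all genes, in which 1.5% of 13525 genes were lower and 2.42% higher in DKO. All 8 CD4 SP markers passed the filter on low counts, 4 of them lower in DKO (*Cd4*, *Cd5*, *Ccr7* and *S1pr1*) and none higher, and the median over the list was -0.46 on the log2 scale. DESeq2 called 5 lower. *Rag1*, *Rag2* and *Ptcra*, which mark double-positive and earlier thymocytes, had 0 to 3 reads in each library, and the 6 double-positive markers, which include both CD8 genes, summed to 87.6 to 96.8 CPM in WT and 47.3 to 49.8 in DKO. Of 5 iNKT markers 3 were higher in DKO (*Zbtb16*, *Klrb1c* and *Cxcr6*; 4 by DESeq2, with *Tbx21*), with a summed level of 239 to 259 CPM in WT and 362 to 556 in DKO. The rearrangement that defines iNKT cells, TRAV11 with TRAJ18, was carried by 1 to 3 of 3548 to 6948 productive TRA clonotypes in each library, and TRAV1 with TRAJ33 of MAIT cells by 0 to 2. Myeloid markers summed to 7.29 to 12.8 CPM in WT and 22.4 to 49.9 in DKO (5 genes, of which 3 were tested, none past the threshold by edgeR or DESeq2 and 3 at an unadjusted p under 0.05), B cell markers to 2.03 to 3.30 and 1.74 to 3.29, and the 2 of 5 gamma-delta markers that were found (*Trdc* and *Sox13*) to 12.8 to 17.7 and 15.5 to 18.3. The 2 CD8 markers summed to 68.8 to 77.5 CPM in WT and 33.8 to 35.6 in DKO. *Cd8b1*, the larger part of that sum in every library, was lower, whereas *Cd8a* had 2.73 to 5.42 CPM in WT and 5.68 and 8.65 in DKO (log2 fold change 0.94, adjusted p = 0.128). The 3 regulatory T cell markers summed to 99.8 to 120 and 71.4 to 80.7, with *Foxp3* lower, *Ikzf2* at 20.6 to 27.5 in WT and 42.5 and 18.2 in DKO, and *Il2ra* at 33.7 to 37.6 and at 11.3 and 38.2. The part of these differences in the segment results was not tested, and in bulk RNA fewer cells of a type and less RNA per cell cannot be told apart.

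The germline ends of the TRBV segments that differed between the genotypes are shown here because they are the bases a V segment can bring to the CDR3. The last 30 bases of each are given 5′ to 3′ on the strand of the gene (GENCODE M21, mm10), with capitals from the codon of the conserved cysteine. TRBV5 and TRBV13-3 are added because they share that part with TRBV2 and with TRBV13-1.
TRBV1, chr6:40891856-40891885, +: cagaaccttgtacTGCACCTGCAGTGCAGA
TRBV2, chr6:41047966-41047995, +: ggccacatacttcTGTGCCAGCAGCCAAGA
TRBV5, chr6:41062774-41062803, +: agctgtctattttTGTGCCAGCAGCCAAGA
TRBV12-1, chr6:41114038-41114067, +: tctgctatgtacttcTGTGCCAGCTCTCTC
TRBV13-1, chr6:41116439-41116468, +: catctttgtacttcTGTGCCAGCAGTGATG
TRBV12-2, chr6:41119335-41119364, +: tctgccgtgtacttcTGTGCCAGCTCTCTC
TRBV13-3, chr6:41130556-41130585, +: cagctgtatatttcTGTGCCAGCAGTGATG
TRBV15, chr6:41141629-41141658, +: agctgtgtatctgTGTGCCAGCAGTTTAGC
TRBV16, chr6:41152201-41152230, +: agcggtgtatcttTGTGCAAGCAGCTTAGA
TRBV20, chr6:41188948-41188977, +: cagaggcttatatctcTGTGGTGCTAGGGA
TRBV30, chr6:41281961-41281990, +: cagcagtatctatttcTGTAGTTCTAGAGA
TRBV31, chr6:41557693-41557722, -: ctctggcttctacctcTGTGCCTGGAGTCT

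The 7 TRBJ segments that differed are given whole, with capitals for the part that belongs to the CDR3, up to and including the codon of the conserved phenylalanine.
TRBJ1-1, chr6:41533864-41533911, +: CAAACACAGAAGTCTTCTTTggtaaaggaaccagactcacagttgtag
TRBJ1-4, chr6:41534811-41534861, +: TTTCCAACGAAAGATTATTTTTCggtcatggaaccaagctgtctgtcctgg
TRBJ1-5, chr6:41535084-41535133, +: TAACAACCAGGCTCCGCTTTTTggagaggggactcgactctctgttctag
TRBJ2-1, chr6:41542754-41542803, +: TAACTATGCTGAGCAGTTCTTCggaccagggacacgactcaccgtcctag
TRBJ2-3, chr6:41543223-41543271, +: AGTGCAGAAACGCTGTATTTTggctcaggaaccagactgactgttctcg
TRBJ2-5, chr6:41543453-41543501, +: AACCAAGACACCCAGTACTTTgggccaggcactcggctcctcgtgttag
TRBJ2-7, chr6:41543810-41543856, +: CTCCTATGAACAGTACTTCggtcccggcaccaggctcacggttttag

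The first question was whether the clonotypes of *Tet2/3* DKO CD4 SP cells used the TRBV segments in other proportions than those of WT. Of the 23 TRBV segments with enough clonotypes to test, 10 (43.5%) differed at an adjusted p of 0.05 (edgeR quasi-likelihood test on clonotype counts with Benjamini-Hochberg adjustment). The share rose in DKO for 6 (26.1%), TRBV12-1, TRBV12-2, TRBV15, TRBV16, TRBV20 and TRBV30, and fell for 4 (17.4%), TRBV1, TRBV2, TRBV13-1 and TRBV31. DESeq2 called the same 10. Since shares add up to a whole, a rise of some segments lowers the others, and the median log2 fold change over the 23 was -0.07.

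TRBV12-1 and TRBV12-2 are a pair of near relatives that alternate with TRBV13-1 and TRBV13-2 along the locus, and their germline CDR3 parts above are the same 15 bases. TRBV12-1 made up 1.91%, 1.81% and 1.88% of clonotypes in WT replicates 1 to 3 and 3.05% and 2.85% in DKO replicates 1 and 2. Both DKO libraries were well above the 3 WT libraries, which lay close together (log2 fold change 0.66, standard error 0.11, adjusted p = 5.44e-07). For TRBV12-2 the shares were 1.67%, 1.92% and 1.99% in WT and 3.16% and 3.13% in DKO. Its change was 0.76 on the log2 scale (standard error 0.11, adjusted p = 1.59e-08), and without DKO replicate 1 the changes of TRBV12-1 and TRBV12-2 were 0.61 and 0.75, both still past the threshold. Together with TRBV15, these were the TRBV segments over 1% that moved most.

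TRBV15 lies downstream of that array, with TRBV13-3 and TRBV14 between them. It was used by 4.19%, 3.75% and 4.26% of WT clonotypes and by 6.17% and 6.49% of DKO clonotypes, with no overlap between the groups (log2 fold change 0.63, standard error 0.08, adjusted p = 2.58e-09). Its neighbour TRBV16 stood at 6.33%, 6.44% and 6.43% in WT and at 8.53% and 8.02% in DKO (0.38, standard error 0.07, adjusted p = 8.46e-06). In TRBV20 the shares were 5.06%, 4.51% and 4.49% in WT and 6.95% and 5.89% in DKO (0.47, standard error 0.08, adjusted p = 6.52e-07), and the 2 DKO mice were further apart than for TRBV15 or TRBV16. Without DKO replicate 1 the log2 changes were 0.67, 0.33 and 0.33 for TRBV15, TRBV16 and TRBV20, all past the threshold. TRBV30, the last TRBV segment before the D and J segments, is under 1% in both groups and was singled out after its values were seen. Its share was 0.493%, 0.329% and 0.381% in WT and 0.653% and 0.906% in DKO, from 28 to 51 clonotypes per library (0.91, standard error 0.21, adjusted p = 0.000167).

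The segments that fell included both ends of the locus. TRBV1 and TRBV2 are the 2 most distal TRBV segments, and TRBV31 lies 9.34 kb beyond *Trbc2* on the opposite strand, so that it joins by inversion. TRBV31 was used by 8.80%, 9.40% and 9.66% of clonotypes in WT and by 6.40% and 6.64% in DKO (log2 fold change -0.51, standard error 0.07, adjusted p = 1.59e-08). TRBV2 made up 5.25%, 5.09% and 5.20% in WT and 3.45% and 3.77% in DKO (-0.53, standard error 0.09, adjusted p = 6.52e-07). TRBV1 stood at 6.29%, 7.59% and 6.68% in WT and at 5.23% and 4.76% in DKO (-0.44, standard error 0.08, adjusted p = 2.26e-06). All WT libraries lay above both DKO libraries for each of them, and without DKO replicate 1 the changes of TRBV31, TRBV2 and TRBV1 were -0.48, -0.46 and -0.52, all past the threshold. TRBV13-1 moved least, from 7.74%, 7.21% and 7.69% to 6.37% and 6.51% (-0.23, standard error 0.08, adjusted p = 0.00754). With clonotypes of 2 or more reads, TRBV1 and TRBV13-1 did not pass (-0.37 and -0.24, adjusted p = 0.0637 and 0.0954).

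The partners with the same germline CDR3 bases as TRBV13-1 and TRBV2 did not pass the test. TRBV13-3, which shares 16 bases with TRBV13-1, had 6.82%, 6.75% and 6.95% in WT and 6.79% and 7.61% in DKO (log2 fold change 0.06, standard error 0.08, adjusted p = 0.521). TRBV5, which shares 17 bases with TRBV2, had 7.10%, 6.82% and 7.46% in WT and 6.78% and 6.28% in DKO (-0.12, standard error 0.08, adjusted p = 0.173), with both DKO libraries below all WT libraries. The difference within each pair of segments was not tested. TRBV12-1 and TRBV12-2, which share 15 bases, both rose (0.66 and 0.76). The segments of a pair also differ in the V body that carries CDR1 and CDR2, and whether that bears on usage was not tested.

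The remaining 11 TRBV segments of at least 1% did not pass the test, with log2 fold changes from -0.27 for TRBV29 to 0.22 for TRBV26 and adjusted p from 0.0796 upward. Some of them depended on 1 DKO library. TRBV23 was called without DKO replicate 1 (-0.75, adjusted p = 0.00649) and stood at 0.00 without DKO replicate 2, whereas TRBV13-2 and TRBV26 were called without DKO replicate 2 (-0.21 and 0.32, adjusted p = 0.0201 and 0.0313). TRBV29 was at -0.41 without DKO replicate 1 (adjusted p = 0.0672). The most used TRBV segment, except in DKO replicate 1, was TRBV13-2, at 10.3%, 10.7% and 9.89% in WT and 8.85% and 10.4% in DKO (-0.11, standard error 0.07, adjusted p = 0.173). By group means TRBV3 followed, with 9.05% to 9.89% in WT and 9.06% to 9.89% in DKO, and the 2 groups covered the same range (-0.00, standard error 0.07). TRBV4, TRBV14, TRBV17, TRBV19 and TRBV23 lay between 0.736% and 5.27% in every library. Below 1%, beside TRBV30, came TRBV8, TRBV18, TRBV21, TRBV22, TRBV24 and TRBV25 with 0 to 14 clonotypes per library, and all but TRBV21 are annotated as pseudogenes. Of these, only TRBV21 and TRBV24 had enough clonotypes for the test. The groups did not overlap for 14 of the 23 tested segments (60.9%), that is, for 4 beyond the 10 called. Among all genes tested by gene reads the share was 39%.

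**Figure D1:**
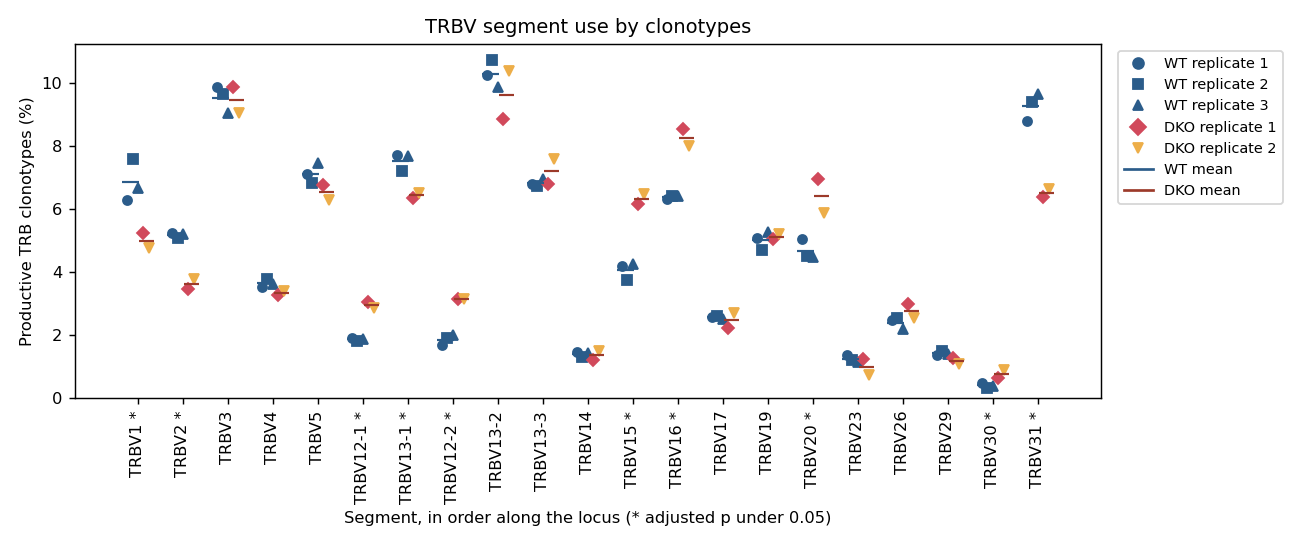
Share of productive TRB clonotypes (y axis, %) for each TRBV segment of at least 1% and TRBV30 (x axis, in order along the locus), 1 point per library with a line at each group's mean. TRBV1, TRBV2 and TRBV31 at the outer ends lie lower in both DKO libraries, and TRBV12-1, TRBV12-2, TRBV15, TRBV16 and TRBV20 lie higher.

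The pattern of the whole TRBV set can be put as the share of clonotypes that would have to change segment for 2 libraries to match. That share was 2.61% to 3.23% between WT libraries, 4.84% between the 2 DKO libraries and 9.11% to 11.03% between a WT and a DKO library. At equal depth of 10224 reads it was 2.73% to 3.38%, 4.69% and 9.15% to 10.997%. The effective number of TRBV segments, the exponential of the Shannon entropy of their clonotype shares, was 17.5, 17.2 and 17.4 in WT and 18.1 and 18.0 in DKO, so that the DKO clonotypes were spread slightly more evenly (difference 0.63, exact permutation p = 0.1, the smallest that 3 against 2 libraries can give). Across the 22 tested segments other than TRBV31, position along the locus and log2 fold change had a Spearman rho of 0.39, as a description, since segments of a library share its total.

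For the TRBJ segments, 7 of 12 (58.3%) differed by the same test, 4 higher (33.3%) and 3 lower (25%) in DKO. The TRBJ segments lie in 2 clusters, each upstream of its own constant gene, *Trbc1* or *Trbc2*, and the first contributed more in DKO. TRBJ1-5 rose most, from 1.79%, 1.85% and 1.796% in WT to 3.35% and 2.66% in DKO (log2 fold change 0.76, standard error 0.10, adjusted p = 7.95e-08). TRBJ1-1 rose from 9.82%, 10.1% and 9.85% to 11.3% and 10.96% (0.17, standard error 0.05, adjusted p = 0.00619), and TRBJ1-4 from 5.98%, 5.58% and 6.00% to 6.79% and 6.59% (0.19, standard error 0.06, adjusted p = 0.0105). TRBJ2-7, the last segment of the second cluster and the most used of all, stood at 17.5%, 18.1% and 18.4% in WT and at 18.6% and 20.4% in DKO (0.10, standard error 0.04, adjusted p = 0.0252).

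TRBJ2-3 and TRBJ2-5 fell. TRBJ2-3 went from 9.64%, 9.36% and 9.43% to 7.66% and 6.96% (log2 fold change -0.36, standard error 0.06, adjusted p = 1.14e-06), and TRBJ2-5 from 13.7%, 14.1% and 14.1% to 11.3% and 11.9% (-0.28, standard error 0.05, adjusted p = 3.03e-06). TRBJ2-1, at 11.03%, 10.8% and 10.8% in WT and 9.80% and 10.3% in DKO, only just passed (-0.12, standard error 0.05, adjusted p = 0.0480). It was not called in 10 of 14 other settings, among them that without DKO replicate 1 (-0.07, adjusted p = 0.386). No overlap between the groups was found for 8 of the 12 segments (66.7%), beside 39% of all genes tested by gene reads. The 5 that did not pass, TRBJ1-2, TRBJ1-3, TRBJ1-6, TRBJ2-2 and TRBJ2-4, changed by -0.04 to 0.16.

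Fewer TRBJ calls than TRBV calls held in other fits. TRBJ1-5, TRBJ2-3 and TRBJ2-5 were called by DESeq2 and by every other setting tried. Scaling by TMM called 4, of which only TRBJ1-5 was higher. Without DKO replicate 1, TRBJ1-5, TRBJ2-3, TRBJ2-5 and TRBJ2-7 were called, with log2 changes of 0.56, -0.45, -0.24 and 0.18, and without DKO replicate 2 the TRBJ2-7 change was 0.04 (adjusted p = 0.331).

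**Figure D2:**
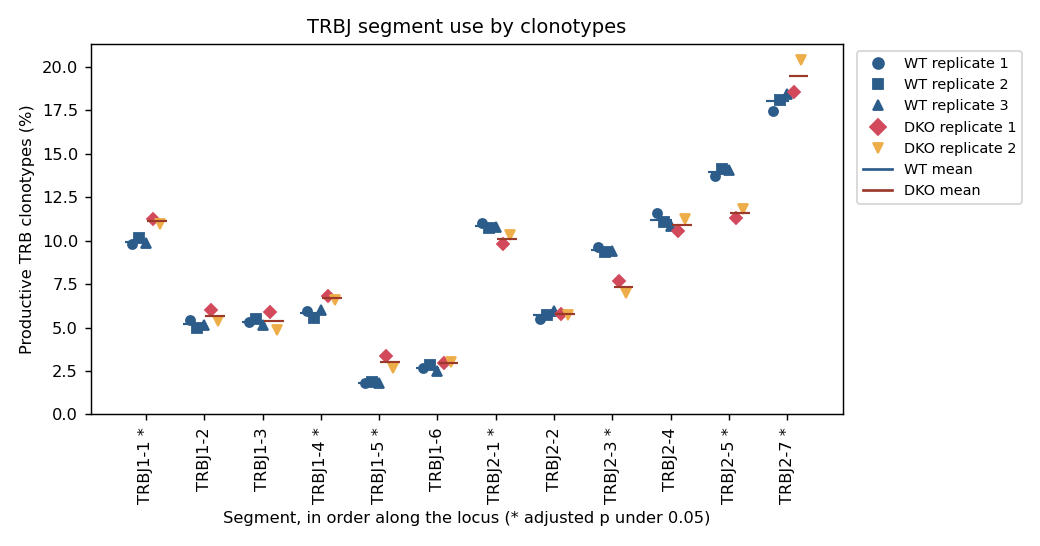
Share of productive TRB clonotypes (y axis, %) for the 12 TRBJ segments (x axis, in order along the locus), 1 point per library with a line at each group's mean. TRBJ1-5 is higher and TRBJ2-3 and TRBJ2-5 are lower in both DKO libraries, with WT libraries close together.

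Summed over segments, the TRBJ2 cluster held 69.0%, 69.1% and 69.6% of clonotypes in WT and 63.7% and 66.6% in DKO. Both DKO libraries were below all WT libraries, by 4.09 percentage points on average (exact permutation p = 0.1, the smallest possible here), and without DKO replicate 1 by 2.67. Reads of the 2 constant genes gave a second view of the clusters. *Trbc1* took 50.3%, 49.9% and 49.7% of the *Trbc1* and *Trbc2* gene reads in WT and 55.2% and 52.5% in DKO (difference 3.92 percentage points, exact permutation p = 0.1), and without DKO replicate 1 the difference was 2.60. The 2 genes are near-identical in sequence, so their split in reads is uncertain, and among TRBJ2 clonotypes with a constant hit the first hit was TRBC2 in only 38.7% to 41.8%.

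Pairs of V and J segments were tested in the same way. Of 324 possible pairs 298 were found and 206 tested, of which 35 (17%) differed, 24 higher (11.7%) and 11 lower (5.34%) in DKO. The groups did not overlap for 97 of the 206 (47.1%), not far from the 39% of all genes tested by gene reads. Most calls matched those of the segments that compose the pair. The segment counts include the clonotypes of the pair, so this match is in part built in. Among the 35, the V segment was called in the same direction in 31 and the J segment in 26, both in 23 and neither in 1, TRBV4 with TRBJ1-2, which was chosen here after its values were seen (log2 fold change 0.93, adjusted p = 0.0412). No called pair held a V segment that was itself called in the opposite direction, and 3 held such a J segment. Of the 11 pairs that fell, 10 used TRBJ2-1, TRBJ2-3 or TRBJ2-5, the 3 of 12 TRBJ segments that were called lower.

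Each of the 5 pairs that fell most joins a V and a J segment that were both called lower, TRBJ2-1 in few of the settings. TRBV1 with TRBJ2-5 made up 0.911%, 1.12% and 1.07% of WT clonotypes and 0.537% and 0.472% of DKO clonotypes (log2 fold change -1.02, standard error 0.20, adjusted p = 8.37e-05). The log2 changes of the other 4 were -1.05 for TRBV1 with TRBJ2-3, -0.98 for TRBV2 with TRBJ2-5, -0.93 for TRBV31 with TRBJ2-3 and -0.88 for TRBV31 with TRBJ2-1. TRBV31 with TRBJ2-3 went from 87, 87 and 132 clonotypes in WT to 48 and 27 in DKO, and all WT libraries were above both DKO libraries as shares of their total (adjusted p = 0.000157).

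The 5 pairs that rose most had few clonotypes, and here too both segments had risen. TRBV15 with TRBJ1-5 had 8, 3 and 5 clonotypes in WT and 19 and 8 in DKO (log2 fold change 1.82, standard error 0.44, adjusted p = 0.000970). TRBV15 with TRBJ1-4 had 12, 10 and 16 in WT and 25 and 25 in DKO (1.49, standard error 0.31, adjusted p = 0.000192). The changes of TRBV30 with TRBJ2-7, TRBV16 with TRBJ1-5 and TRBV12-1 with TRBJ1-1 were 1.51, 1.42 and 1.34, from 4 to 18 clonotypes per library. The 5 most used pairs of WT cells, TRBV13-2 with TRBJ2-7, TRBV3 with TRBJ2-7, TRBV13-2 with TRBJ2-5, TRBV31 with TRBJ2-7 and TRBV13-1 with TRBJ2-7, held 1.02% to 2.17% of clonotypes in each library and none passed the test (adjusted p from 0.121 to 0.858).

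Fewer pairs passed with a DKO library left out or with clonotypes of 2 or more reads only. With clonotypes of 2 or more reads none of 98 pairs passed, 21 of the 35 being tested and all of these in the same direction, with 12 at an unadjusted p under 0.05. Without DKO replicate 1 there were 4 calls and without DKO replicate 2 there were 16, with the same direction for all 35 pairs in both. Of the 10 pairs named here that rose or fell, TRBV1 with TRBJ2-5 and TRBV15 with TRBJ1-4 passed without DKO replicate 1, with changes of -1.13 and 1.79. DESeq2 called 5, all among the 35. Scaling by TMM called 37, of which 18 were higher. Over the settings in which they were tested, the named pairs that fell changed by -1.52 to -0.62. Those that rose changed by 1.13 to 2.23.

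**Figure D3:**
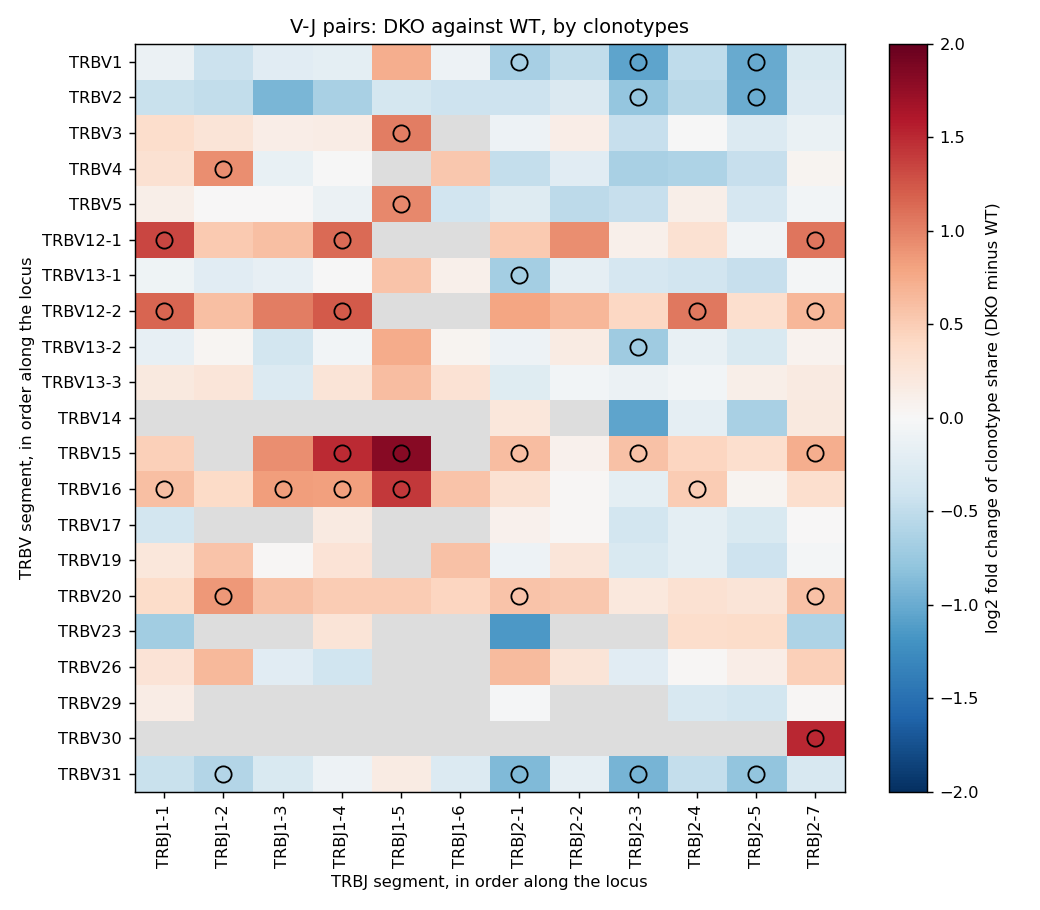
Log2 fold change of clonotype share, DKO minus WT, for each tested pair of a TRBV segment (y axis) and a TRBJ segment (x axis), both in order along the locus, with red for higher and blue for lower in DKO, grey for pairs not tested, and circles on the 35 pairs called. Calls lie along the rows of the V segments that moved, and those that fell lie mainly in the columns of TRBJ2-1, TRBJ2-3 and TRBJ2-5.

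Whether V and J segments were joined independently was described by the ratio of observed clonotypes of a pair to the number expected from the V and J shares of the library. Over the 96 pairs with at least 20 expected clonotypes in every library, the mean ratio in WT ranged from 0.58 to 1.67. The lowest was TRBV16 with TRBJ1-2, at 0.62, 0.62 and 0.50 in WT and 0.62 and 0.35 in DKO. The highest was TRBV15 with TRBJ1-1, at 1.46, 2.04 and 1.51 in WT and 1.29 and 1.38 in DKO. Both pairs were on the same side of 1 in all 5 libraries. Across these pairs the WT and DKO mean ratios had a Pearson correlation of 0.69, as a description. For the tested pairs, the change of a pair differed from the sum of the changes of its V and its J segment by a median of 0.16 on the log2 scale, against a median standard error of 0.26.

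Counted by reads, a few large clonotypes stood out in the DKO libraries. None of the 24 TRBV segments, 12 TRBJ segments or 213 pairs passed the edgeR test (0%), with 8, 2 and 53 at an unadjusted p under 0.05 and a lowest adjusted p of 0.0639. DESeq2 called 8, 2 and 15. The TRBV segments called by clonotypes kept their direction by reads, TRBV16 only just (log2 fold change 0.04). Of the TRBJ segments called by clonotypes, TRBJ1-1 (-0.17), TRBJ1-4 (-0.15), TRBJ2-7 (-0.20) and TRBJ2-1 (0.22) had the opposite sign by reads. TRBJ1-5 and TRBJ2-3 kept theirs (0.45 and -0.57), and TRBJ2-5 was at -0.01. These TRBJ changes had standard errors of 0.26 to 0.27. The variation between libraries of a group was larger for reads, with a biological coefficient of variation of 21.5% for TRBV against 3.36% for clonotypes. In WT the 10 largest clonotypes took 0.449% to 0.529% of reads, against 8.55% in DKO replicate 1 and 34.0% in DKO replicate 2.

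In the WT libraries read and clonotype shares nearly coincided, with a median gap over TRBV segments of 0.0633, 0.0369 and 0.0585 percentage points. The gap was 0.238 in DKO replicate 1 and 1.195 in DKO replicate 2 (difference 0.66, exact permutation p = 0.1). Without the 10 largest clonotypes of each library the difference was 0.0214 (exact permutation p = 0.2), and with clonotypes of 2 or more reads it was 1.29. The effective number of TRBV segments by reads was 17.5, 17.2 and 17.3 in WT and 17.2 and 14.7 in DKO. DKO replicate 1 lay only just below WT replicate 2, so that most of the mean difference of -1.41 came from DKO replicate 2, without which it was -0.16. Without the 10 largest clonotypes of each library it was higher in DKO by 0.57, and with clonotypes of 2 or more reads the difference was -3.75.

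A read share exceeded its clonotype share by over 2 percentage points for 2 segments in DKO replicate 1 and for 6 in DKO replicate 2, and in no WT library. TRBV17 in DKO replicate 2 was the largest of these, with 2.72% of clonotypes but 13.5% of reads, against 2.49% to 2.72% of reads in WT and 2.31% in DKO replicate 1. TRBV3, TRBV13-2, TRBJ1-3, TRBJ2-4 and TRBJ2-5 were the other 5 of that library, and TRBV13-2 and TRBJ2-1 those of DKO replicate 1. The largest clonotype on each segment is shown with the bases between the germline V end and the germline J end, D bases and added bases, in capitals.
TRBV13-2 with TRBJ2-1, DKO replicate 1: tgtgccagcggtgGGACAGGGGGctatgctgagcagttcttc
TRBV3 with TRBJ2-5, DKO replicate 2: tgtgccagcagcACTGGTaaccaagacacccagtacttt
TRBV13-2 with TRBJ1-3, DKO replicate 2: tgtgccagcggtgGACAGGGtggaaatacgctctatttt
TRBV17 with TRBJ2-4, DKO replicate 2: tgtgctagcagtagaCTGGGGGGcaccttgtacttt

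These 4 clonotypes held much of the excess. The TRBV3 clonotype had 971 reads, 9.50% of its library, and without it TRBV3 would hold 6.31% of reads in place of 15.2%. The TRBV13-2 clonotype of DKO replicate 2 had 813 reads, or 51.9% of all reads on that segment there, and the TRBV17 clonotype had 772, or 55.9%. Without the latter TRBV17 would hold 6.45% of reads, still above its 2.72% of clonotypes. In DKO replicate 1 the TRBV13-2 clonotype had 632 reads, and without it the share of TRBV13-2 falls from 13.8% to 8.84%, next to 8.85% of clonotypes. The CDR3 bases of that clonotype were seen with 5 reads in WT replicate 1 and 5 in DKO replicate 2, those of the TRBV17 clonotype with 3 reads in DKO replicate 1, and those of the TRBV3 clonotype with 1 read in WT replicate 2. Without the 10 largest clonotypes of each library the read test called 10 TRBV segments, 5 TRBJ segments and 28 pairs.

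**Figure D4:**
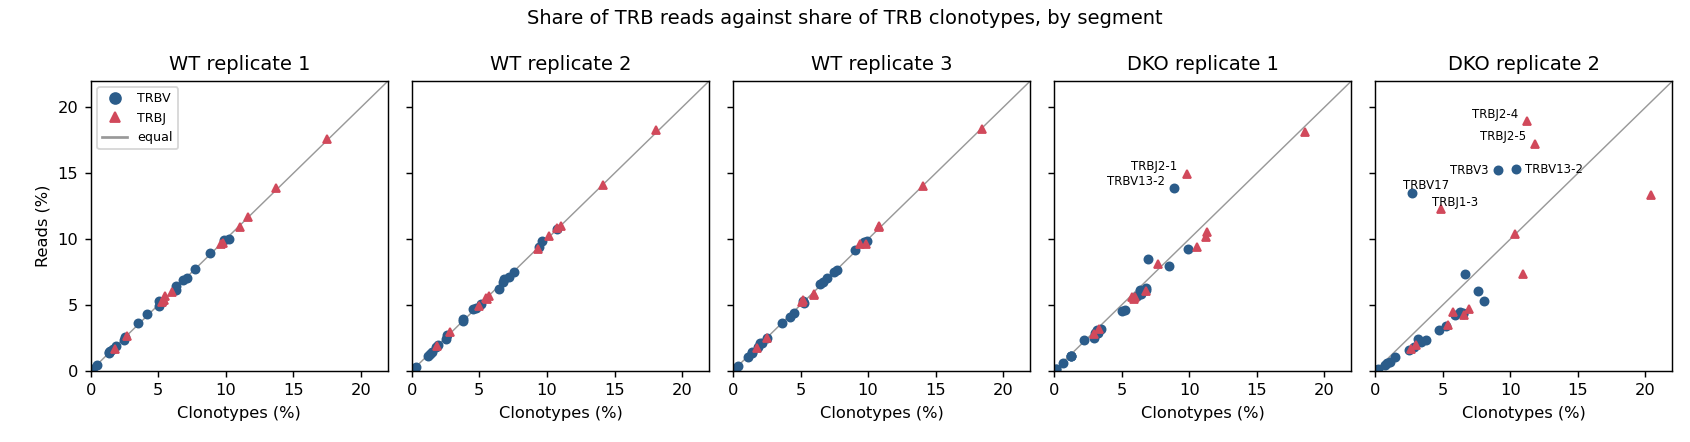
Share of TRB reads (y axis, %) against share of productive TRB clonotypes (x axis, %) for each TRBV (circles) and TRBJ (triangles) segment, 1 panel per library, with the line of equal shares. WT segments lie on the line, and the segments named in the DKO panels exceed it by over 2 percentage points.

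The CDR3 was compared next, since V and J segments set much of its length. The mean CDR3 of productive clonotypes was 13.74, 13.71 and 13.71 residues in WT and 13.69 and 13.65 in DKO. It was shorter in both DKO libraries, by 0.0501 residues (exact permutation p = 0.1). Without DKO replicate 2 the difference was -0.0265, and with clonotypes of 2 or more reads it was -0.0387 (exact permutation p = 0.2). When the 248 pairs present in every library were each given their mean WT share, the means were 13.74, 13.71 and 13.71 in WT and 13.75 and 13.71 in DKO, so that the groups overlapped (difference 0.01, exact permutation p = 0.7). The bases trimmed from the V end were 2.45, 2.47 and 2.47 in WT and 2.55 and 2.52 in DKO (difference 0.07, exact permutation p = 0.1), and 2.44, 2.47 and 2.48 against 2.47 and 2.44 at fixed pair shares. Among the segments that rose, the mean trim in WT ran from 1.63 bases for TRBV12-1 to 4.01 for TRBV15, and among those that fell from 0.91 for TRBV31 to 2.49 for TRBV13-1. Bases between the germline V and J ends numbered 9.305, 9.260 and 9.299 in WT and 9.251 and 9.172 in DKO (difference -0.08, exact permutation p = 0.1), with DKO replicate 1 only just below WT replicate 2, and the difference was -0.04 without DKO replicate 2. With clonotypes of 2 or more reads its sign turned (0.00233). At fixed pair shares the groups overlapped (exact permutation p = 0.9).

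Non-productive clonotypes give a view of joining with less selection on the protein, but they were few, 310 to 460 per WT library and 244 and 215 in DKO. TRBV31 held 17.1% of non-productive clonotypes in WT (192 of 1123, 95% Wilson interval 15.01% to 19.4%) and 13.5% in DKO (62 of 459, 10.7% to 16.9%), a log2 fold change of -0.34 with a standard error of 0.19 (adjusted p = 0.320). TRBV12-1 held 5.52% (4.33% to 7.01%) and 5.23% (3.54% to 7.66%), a log2 fold change of -0.08 with a standard error of 0.31, and TRBV15 4.54% (3.47% to 5.92%) and 4.36% (2.84% to 6.63%), -0.06 with 0.34. For TRBV20 the values were 2.85% (2.03% to 3.99%) and 5.45% (3.72% to 7.92%), 0.93 with 0.35 (adjusted p = 0.140), and for TRBV2 3.92% (2.93% to 5.22%) and 2.18% (1.19% to 3.96%), -0.84 with 0.43 (adjusted p = 0.320). The log2 changes of TRBV16, TRBV1 and TRBV13-1 were 0.70, -0.06 and -0.35 (standard errors 0.37, 0.34 and 0.27), and TRBV12-2 and TRBV30 were too rare to test. No TRBJ segment passed (lowest adjusted p = 0.140), and TRBJ1-5, TRBJ2-3 and TRBJ2-5 had log2 changes of -0.44, -0.32 and -0.02 (standard errors 0.41, 0.28 and 0.22). Whether productive and non-productive clonotypes differ in their change was not tested.

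The gene counts of the same libraries were made by another route, from reads aligned to the *Trb* genes. Of 53 *Trb* genes 41 were tested, and 3 passed the adjusted p of 0.01 used for genes, all lower in DKO, in a fit where 530 of 13525 genes (3.92%) were called, 327 higher (2.42%) and 203 lower (1.5%). They were *Trbv1*, *Trbv2* and *Trbv31*, the same 3 segments at the ends of the locus that fell most in clonotypes. *Trbv2* had 95.3, 87.4 and 92.0 CPM in WT and 62.3 and 54.8 in DKO (log2 fold change -0.62, standard error 0.10, adjusted p = 0.00632). *Trbv31* had 83.5, 79.9 and 88.5 CPM in WT and 54.8 and 57.7 in DKO (-0.56, standard error 0.10, adjusted p = 0.00815), and *Trbv1* 83.3, 81.3 and 87.5 and 59.2 and 53.3 (-0.56, standard error 0.10, adjusted p = 0.00990). *Trbv1* is at the edge of the threshold, and the 3 genes had the same direction in every setting. DESeq2 called 4, these 3 and *Trbv12-2*, which was higher. Without any 1 of the WT libraries no *Trb* gene passed the edgeR test, with 10 to 12 at an unadjusted p under 0.05.

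All 10 TRBV segments called in clonotypes had the same sign in gene reads of the same libraries, as had 17 of all 23 tested in both. Across the 23 the Pearson correlation of gene changes was 0.51 with clonotype changes and 0.87 with clonotype read changes, as a description. The groups did not overlap in gene reads for 8 of the 10, against 14 of the 23 tested *Trbv* genes and 39% of all genes tested. *Trbv12-2* had 63.7, 67.4 and 68.2 CPM in WT and 93.2 and 85.6 in DKO (log2 fold change 0.45, standard error 0.10, adjusted p = 0.0207), and *Trbv12-1* 16.1 to 19.1 and 23.3 to 28.7 (0.56, standard error 0.15, adjusted p = 0.0550). *Trbv16* and *Trbv30* overlapped between groups, with log2 fold changes of 0.07 and 0.31. Gene reads, like clonotype reads, carry the weight of large clonotypes. *Trbv17* had 20.5 to 27.7 CPM in 4 libraries and 85.1 in DKO replicate 2 (1.28, standard error 0.36, adjusted p = 0.0622), and without DKO replicate 1 it was called (adjusted p = 2.44e-08). *Trbv4* and *Trbv5* had 6 to 25 reads per library although TRBV4 and TRBV5 were used by 3.28% to 7.46% of clonotypes, so the gene counts say little of these 2. Members of the TRBV12 and TRBV13 groups are close in sequence, and how the gene counts split their reads is uncertain.

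**Figure D5:**
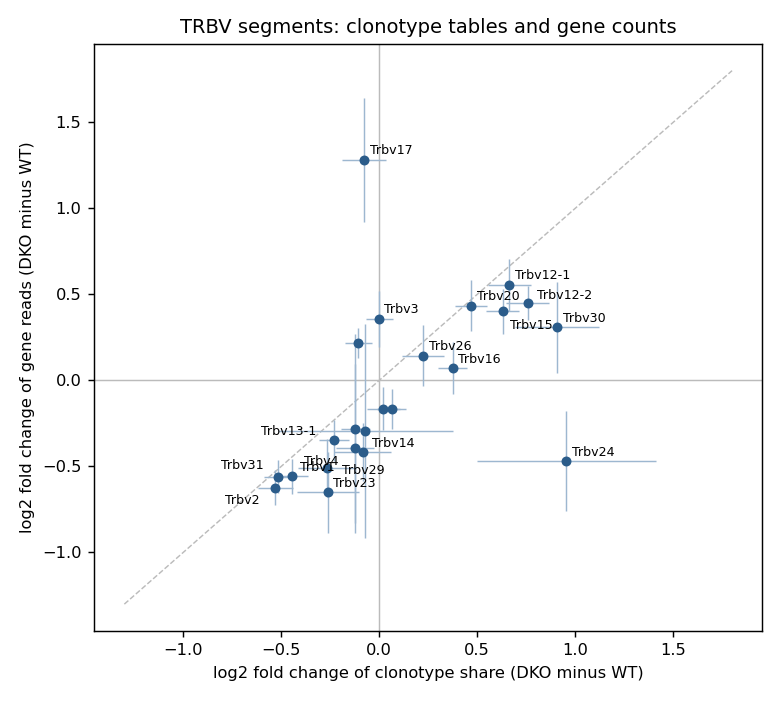
Log2 fold change, DKO minus WT, of gene reads (y axis) against that of clonotype share (x axis) for the 23 *Trbv* genes tested in both, with standard errors as bars and a dashed line of equality. *Trbv1*, *Trbv2* and *Trbv31* lie low on both axes, *Trbv12-1*, *Trbv12-2*, *Trbv15* and *Trbv20* high on both, and *Trbv17* is high in gene reads only.

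Genes of V(D)J recombination and end joining, fixed as a list of 13, gave no call by edgeR in either direction among the 10 tested, with 3 at an unadjusted p under 0.05, and DESeq2 called *Dclre1c* higher. Their median log2 fold change was 0.15, beside 0.01 for all genes. *Rag1*, *Rag2* and *Ptcra* were not tested, with 0 to 3 reads in each library. All these levels are of CD4 SP cells, and levels at the stage of joining were not measured. *Dclre1c*, which encodes the nuclease Artemis that opens hairpin ends, had 16.5 to 20.2 CPM in WT and 28.0 and 29.2 in DKO (0.67, standard error 0.14, adjusted p = 0.0155). *Dntt*, the terminal transferase that adds bases at the joint, had 17.3 to 23.6 and 13.4 and 14.1 (-0.53, standard error 0.18, adjusted p = 0.106), and *Lig4*, the ligase of the joint, 4.76 to 5.23 and 2.02 and 3.63 (-0.82, standard error 0.29, adjusted p = 0.128). Of the 7 genes of the TCR complex none was called by edgeR, with 2 at an unadjusted p under 0.05 and a median of 0.04, and DESeq2 called *Cd247* lower. *Cd247*, the zeta chain, had 698 to 759 CPM in WT and 546 and 484 in DKO (-0.46, standard error 0.09, adjusted p = 0.0133), and *Trbc1* had 1158 to 1301 and 1541 and 1450 (0.30, standard error 0.08, adjusted p = 0.0582), whereas *Trbc2* changed by 0.07 (standard error 0.08).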

How the data were processed

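CD4 SP thymocytes of 3 WT and 2 *Tet2/3* DKO mice were used, grouped by the sample labels. Per the labels and the methods, the authors trimmed reads with fastp 0.21.0 and aligned them with STAR 2.7.5a to mm10. They deposited raw counts of reads per gene, and for TRA and TRB raw counts of reads per clonotype with the fraction of the library's reads. The tool and annotation behind the clonotype calls are not given in the sources used here. Errors in reads can make false clonotypes of 1 read, and without molecular identifiers amplification can change read shares. The deposited fraction was used to check the counts. The read counts without regard to strand were used for genes.

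Segments and pairs that passed filterByExpr (minimum count 10, minimum total 15) were tested with edgeR 4.0.16 (R 4.3.3) by quasi-likelihood with the total of productive clonotypes or reads as offset and 1 common dispersion, since segment-wise dispersions could not be fitted on such small tables. All genes were tested with TMM scaling. Thresholds were an adjusted p of 0.05 for segments and pairs and 0.01 for genes. Values of 1 per library were compared by two-sided exact permutation tests in Python 3.11.15, with Benjamini-Hochberg adjustment not applied, since no p can be under 0.1 with 3 against 2 libraries. The mice are separate animals. DESeq2 1.42.0, TMM, other filters, thresholds, row choices and depths, a replicate block, and each library left out were the alternatives. The members and lists were chosen with earlier results of these data known. Segments of at least 1% were described singly, the 5 pairs most used in WT and the 5 largest rises and falls among called pairs without overlap, the largest clonotype on each segment with a read excess over 2 percentage points, the targeted and sex-linked genes, and gene lists fixed by role. Bases that the deposited reference points place beyond the germline end of a segment were counted as bases between V and J. Junction measures and the *Trbc1* share were added after the data were seen.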

Additional observations from a re-analysis of the deposited data

Results flagged for a closer look

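DKO replicate 1 held 744 *Xist* reads, against 0 to 2 in the WT libraries and 0 in DKO replicate 2, in a gene outside the segment comparisons, and the mouse is labelled male.

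TRBV17 stood out among non-productive clonotypes, which the usage shares leave out. It made up 23 of 1123 in WT (2.05%, 95% Wilson interval 1.37% to 3.05%) and 23 of 459 in DKO (5.01%, 3.36% to 7.41%), which is 1.275 on the log2 scale (SE 0.39), with an adjusted p of 0.0453 by the edgeR quasi-likelihood test. Among productive clonotypes the change was -0.08 (SE 0.11).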

How the results depend on the processing

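The 10 TRBV calls by clonotypes kept their direction in each of 14 settings, with 8 to 12 calls. TRBV1 and TRBV13-1 were lost with clonotypes of 2 or more reads, and TRBV13-1 also with the replicate block. Of the 7 TRBJ calls, 4 were made with clonotypes of 2 or more reads, 4 by TMM, 3 by DESeq2 and 4 at an adjusted p of 0.01. The 35 pair calls became 5 by DESeq2 and 23 at 0.01, and with clonotypes of 2 or more reads 0 of 98 (12 at an unadjusted p under 0.05, edgeR), where fewer pairs were tested. By reads, TRBV calls went from 0 to 1 at equal depth, 8 by TMM, 8 by DESeq2 and 10 without the 10 largest clonotypes, TRBJ calls to 2 by DESeq2 and 5 without those clonotypes, and pair calls to 15 and 28. TMM moved the median log2 change of TRBV by reads from -0.17 to 0.08, and of pairs by reads from -0.24 to 0.06. Without the 10 largest clonotypes the difference in effective TRBV number by reads turned from -1.41 to 0.57, which leaves out the clonotypes with most reads. With clonotypes of 2 or more reads the bases between V and J turned from -0.0765 to 0.00233, and the cause was not tested.

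With 1 library left out, calls by clonotypes ranged from 10 to 12 for TRBV, 4 to 7 for TRBJ and 4 to 30 for pairs, and by reads from 0 to 17, 0 to 10 and 0 to 59, where the calls came without DKO replicate 1 (17, 10 and 59) or DKO replicate 2 (13, 5 and 16). Without WT replicate 2 there were 4 TRBJ calls by clonotypes. The TRBJ2 difference ranged from -5.52 to -2.67 percentage points, the effective TRBV number from 0.56 to 0.68 by clonotypes and -2.65 to -0.16 by reads, CDR3 length from -0.07 to -0.03 residues, and the median gap of read and clonotype shares from 0.185 to 1.14 percentage points, without DKO replicate 2 and 1.

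Of 3 *Trb* gene calls (15 genes at an unadjusted p under 0.05), the number became 1 without a filter on low counts and 1 with counts of the first strand. Leaving out a library gave 0 to 5, with 0 without any WT library (10 to 12 unadjusted) and 5 without either DKO library. Same-numbered libraries hardly deviated together over genes (correlations 0.019 and 0.022). The deviations of the 2 DKO libraries mirror each other, so this cannot exclude a batch shared by number. With the replicate block, calls were 10, 6 and 30 for TRBV, TRBJ and pairs by clonotypes, 0 by reads, and 0 for *Trb* genes (10 unadjusted). DKO replicate 2, with 5299 clonotypes, limits the precision of pairs. Of 298 pairs, 206 had enough clonotypes to test.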
